A study of Mus musculus with 24 samples.

Results

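The genes described here encode collagens, the proteins that assemble with them, and the fibroblast and pericyte genes usually read beside them. They are 37 named genes of the extracellular matrix, taken by symbol from the 16996 genes of the series, and all 37 had exactly 1 row of values. The members were listed by function, though with earlier results of these data known. They were read in RNA from CD45+ cells, that is leukocytes, which were enriched with magnetic beads from digested tumors, so that the matrix genes are carried by whatever stromal and tumor RNA, or leukocyte RNA, remained in these preparations. Which cells a matrix transcript came from was not measured.

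The tumors were grown from EMT6-hHER2, a murine breast cancer line in which a clone obtained by single-cell sorting expresses human HER2. All 24 mice were immunocompetent, genetically wild-type female Balb/c animals, given as 10 to 12 weeks old, that received these cells in the mammary fat pad. When tumors measured 80 mm3, 6 mice were left untreated, and 3 cohorts of 6 received a single intravenous dose of trastuzumab (an antibody against human HER2, 20 mg/kg), T-DM1 (trastuzumab carrying the microtubule poison DM1, 15 mg/kg) or T-PNU (trastuzumab carrying the anthracycline PNU, 1 mg/kg). Tumors were taken on day 10, and each mouse gave 1 library. The methods state that T-PNU tumors had by then shrunk below their volume at treatment, so tumor size and T-PNU treatment cannot be told apart here. The column labels also carry numbers whose meaning is not given. They form separate series for untreated and treated animals, and among the treated they run in blocks by treatment. Whatever these numbers stand for thus cannot be told apart from treatment either.

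The extracellular matrix is a scaffold of secreted proteins. Fibril-forming collagens give tensile strength, collagen IV and laminins form the sheet-like basement membrane under epithelium and around vessels, and proteoglycans and glycoproteins bind to both and to cell receptors. In tumors most of this matrix is known to come from fibroblasts and pericytes, while carcinoma cells that have taken on mesenchymal features can also make it, and macrophages and platelets are known sources of fibronectin and thrombospondin. In bulk RNA such as this, fewer cells of a type and less RNA per cell cannot be told apart.

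The values are log2 levels that the authors had normalized for library size. Counts could not be recovered from them, and the number of reads behind a value is unknown. The transformation is not named. With all genes divided by level into 10 bins of equal size, the median SD within groups was 0.14 in the lowest bin and 0.28 in bin 4, and no 2 genes shared the lowest value of a sample, so low values may be compressed towards each other. Differences and folds are therefore on the deposited scale and may understate the change of genes with low levels. None of the 37 genes lay in the lowest 3 bins, and 14 lay in the highest. All 24 samples entered the main comparisons, fitted by limma with all 4 groups in a single model, and a gene was called at a Benjamini-Hochberg adjusted p under 0.05 over the 16996 genes. The methods mention a search for outlying samples without naming any, and the heatmaps of the study label 20 of the 24. The 4 that they do not label are B1 and C1 of the untreated mice and, of the trastuzumab mice, B3 and E2. Results from these 20 are given beside the main ones because several calls differ. Untreated B1 and C1 had 1 and 5 of the 37 genes above the gene's own mean over the 24 samples, against 18 to 30 in the other untreated samples. Ptprc, which encodes CD45, had a mean log2 level of 14.7, above that of 99.1% of all genes with no correction for length, as the leukocyte label requires. Several matrix genes were also high. Fn1, encoding fibronectin, reached a mean log2 level of 16.1, and per kb of exon its level exceeded that of 98.4% of genes.

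**Figure D1:**
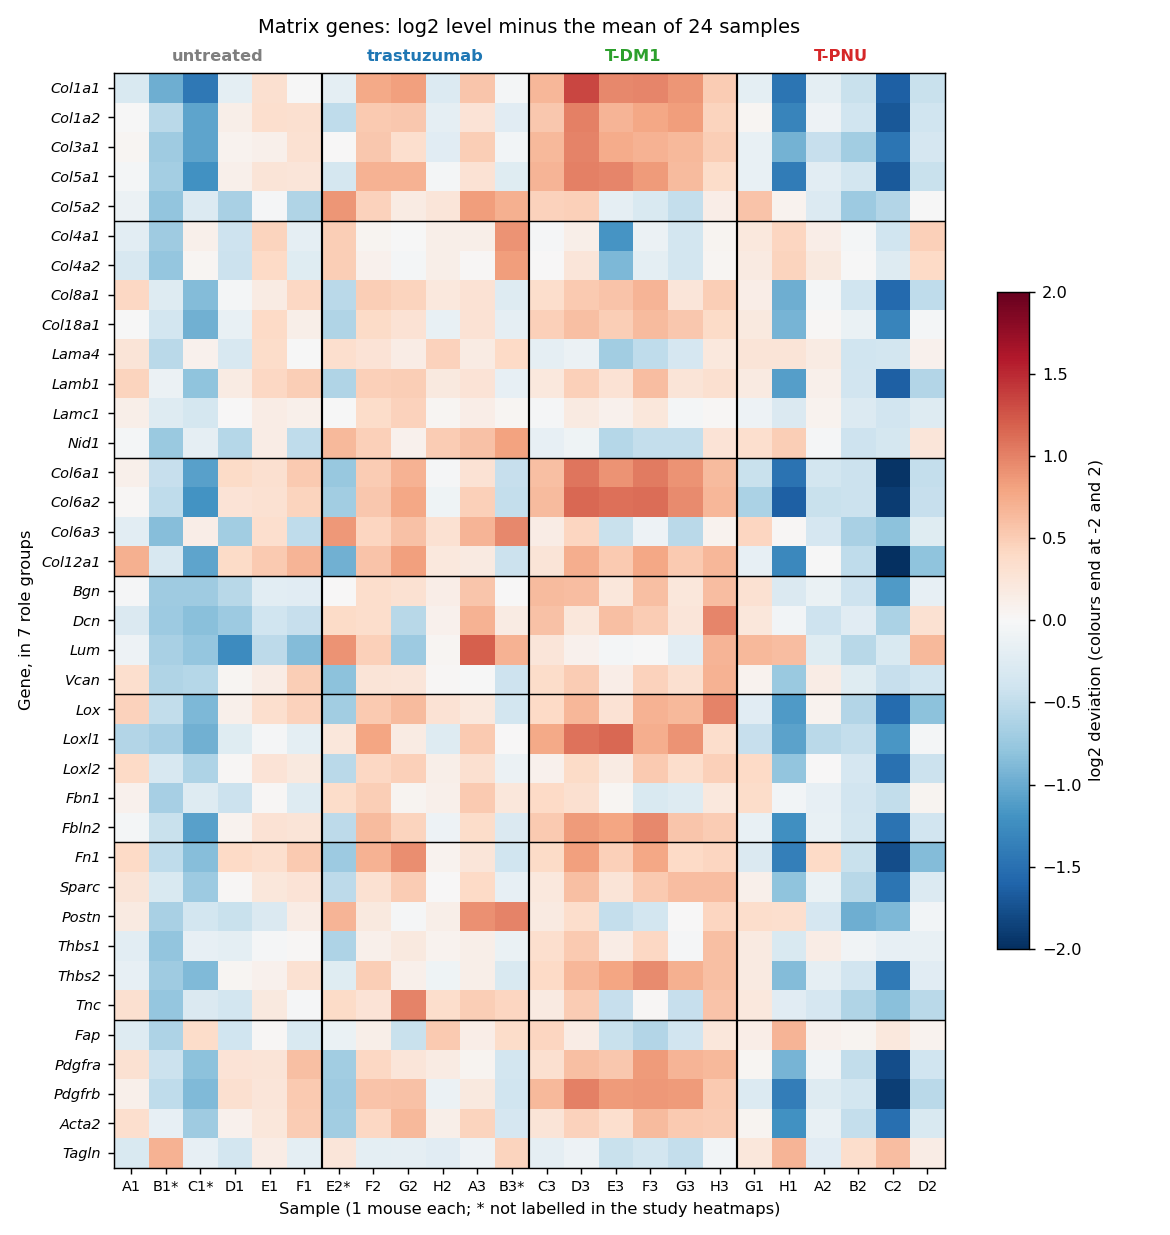
Deviation of each of the 37 genes (y axis, in 7 role groups) from its own mean over 24 samples, in log2 units (colour), for every sample (x axis, grouped by treatment; asterisks mark the 4 samples not labelled in the study heatmaps). Most genes are red in the 6 T-DM1 samples. Most are blue in untreated B1 and C1, with mean deviations of -0.53 and -0.63, and in every T-PNU sample but G1. Those T-PNU samples had 2 to 12 genes above their mean, and C2 had the lowest mean deviation, -1.07.

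T-PNU and T-DM1, which share their antibody, gave the widest separation. They differ in payload but also in dose, 1 against 15 mg/kg, and T-PNU tumors had shrunk by harvest. Payload thus cannot be told apart from dose or tumor size here. Of the 37 genes, 25 were lower and 1 was higher with T-PNU than with T-DM1 at an adjusted p under 0.05, where 17.4% of all genes were called lower and 12.4% higher. The median log2 difference of the 37 was -0.89, beside 0.03 over all genes, and single genes ran from -1.85 to 0.58. With the 20 samples, in which the same T-PNU and T-DM1 samples are compared with another estimate of the spread, again 25 were called lower and 1 higher, against a background of 20.1% lower and 19.8% higher. For 18 genes every T-PNU value lay below every T-DM1 value, which held for 7.73% of all genes. At an adjusted p under 0.01 and an absolute log2 difference above 1, 16 genes were lower and 0 higher, beside 1.72% and 0.188% of all genes. Without T-PNU sample C2, the lowest sample, 22 genes were called lower and 1 higher.

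**Figure D2:**
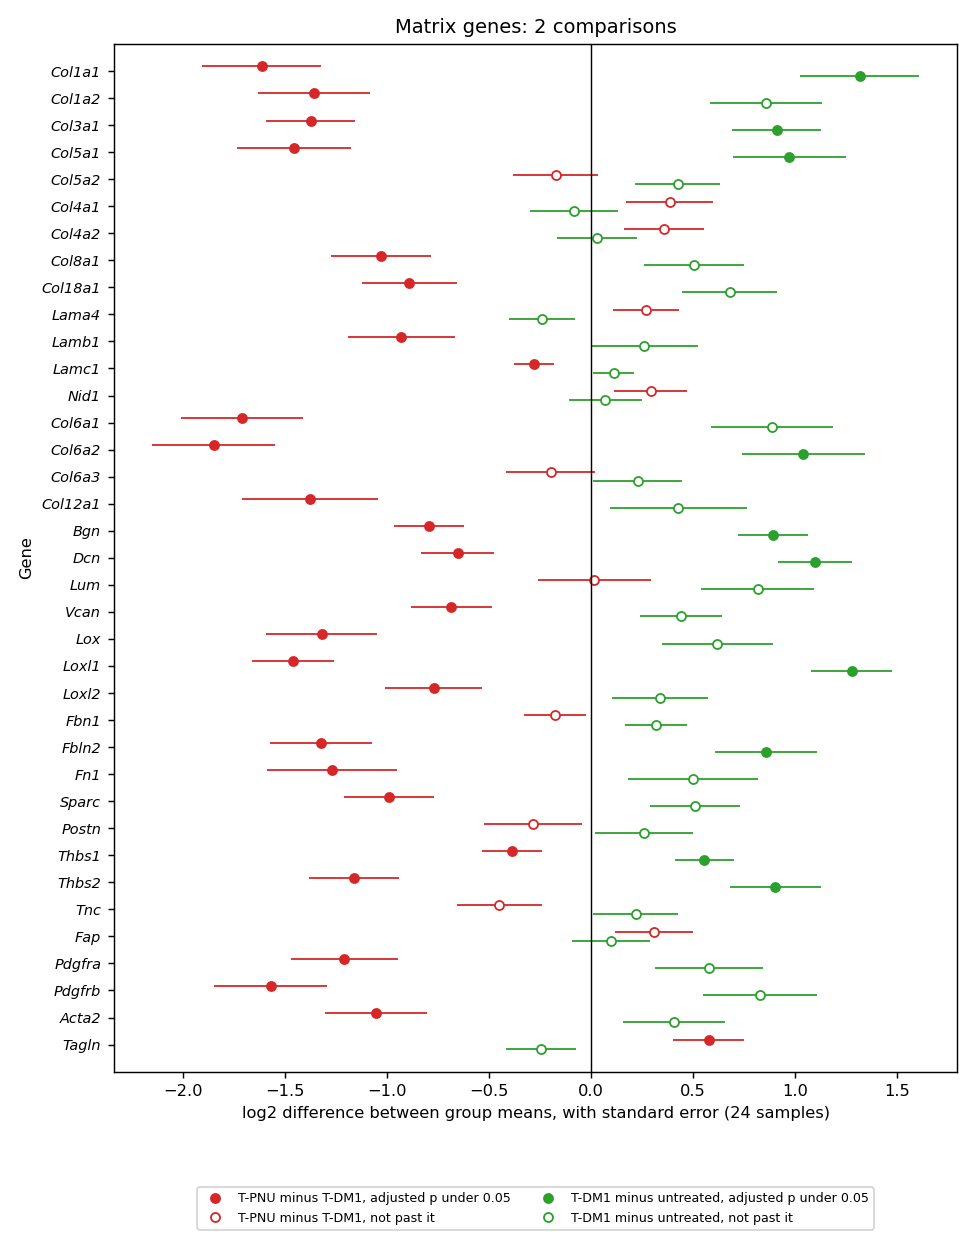
Log2 difference between group means (x axis) with its standard error (bars) for each of the 37 genes (y axis), for T-PNU minus T-DM1 in red and T-DM1 minus untreated in green, from the fit of 24 samples. Filled points passed an adjusted p of 0.05; red points lie left of 0 for 30 genes and green points right of 0 for 34.

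The fibril-forming collagens were 4 of 5 lower with T-PNU than with T-DM1. Col1a2 (ENSMUSG00000029661, chromosome 6, 4504814 to 4541544, plus strand, GRCm38), which encodes the alpha2 chain of collagen I, had the highest level per kb of the role group. It ranged from 13.47 to 15.20 with a median of 14.76 in T-PNU samples, from 15.61 to 16.17 (median 15.89) in T-DM1 samples, from 14.65 to 15.70 (median 15.21) in trastuzumab samples and from 14.11 to 15.49 (median 15.21) in untreated samples. The T-PNU and T-DM1 values did not overlap, and the log2 difference was -1.36 (standard error 0.27, adjusted p = 0.00226), a 2.57-fold lower level on the deposited scale. Col1a1, encoding the partner alpha1 chain, gave the widest gap of the group, -1.62 (standard error 0.29, adjusted p = 0.00139). Its values were 11.49 to 12.93 (median 12.68) with T-PNU, 13.64 to 14.46 (median 14.05) with T-DM1, 12.85 to 13.95 (median 13.39) with trastuzumab and 11.70 to 13.45 (median 12.88) without treatment. Col3a1 and Col5a1 differed by -1.38 and -1.46 (adjusted p = 0.00085 and 0.00179). Col5a2 lies 24.6 kb from Col3a1 on chromosome 1 and encodes a chain that assembles with that of Col5a1. It had a difference of -0.17 (adjusted p = 0.531), with T-PNU values of 8.23 to 9.52 inside and around the T-DM1 range of 8.49 to 9.44.

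Sequences upstream of 3 genes that were lower with T-PNU than with T-DM1 are shown, from the RefSeq promoter table on GRCm38.p6, in which 22 of the 37 genes had an entry. Each is the longest stretch, within 250 bases before the RefSeq start of transcription, that overlaps no exon annotated by GENCODE, printed 5′ to 3′ on the strand of the gene. Capitals mark 3 common promoter elements, each searched on both strands. The first is spelled CCAAT. The element known as the GC box is spelled GGGCGG here. The remaining element, which positions the start of transcription in some genes, is spelled TATAAA. The first is at chr6:4505370-4505492 (plus strand), the second at chr1:45311288-45311537 (plus strand) and the third, of the laminin beta1 gene described further on, at chr12:31265043-31265233 (plus strand).
Col1a2: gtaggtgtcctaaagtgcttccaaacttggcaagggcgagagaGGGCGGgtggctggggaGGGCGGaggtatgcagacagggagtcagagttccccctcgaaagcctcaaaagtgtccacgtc
Col3a1: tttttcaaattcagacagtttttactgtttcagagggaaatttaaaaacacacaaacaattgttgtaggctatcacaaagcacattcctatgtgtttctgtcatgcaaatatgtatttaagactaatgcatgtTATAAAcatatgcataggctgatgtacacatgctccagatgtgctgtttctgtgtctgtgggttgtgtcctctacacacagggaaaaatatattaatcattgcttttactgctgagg
Lamb1: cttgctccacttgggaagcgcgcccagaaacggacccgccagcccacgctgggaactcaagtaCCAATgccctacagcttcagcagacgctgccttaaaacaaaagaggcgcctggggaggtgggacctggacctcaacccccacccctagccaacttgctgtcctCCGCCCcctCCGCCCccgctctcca
The RefSeq start of Col1a2 is base 4505618, which is 804 bases inside the gene as GENCODE bounds it, so the stretch printed for it lies within the GENCODE gene but in none of its exons. The RefSeq start of Lamb1 is 59 bases inside the GENCODE gene, and that of Col3a1 is its first base. Positions are counted back from the RefSeq start. In the stretches printed, Col1a2 has GGGCGG at 205 and 188 bases, Col3a1 has TATAAA at 117 bases, and Lamb1 has CCAAT at 187 bases and GGGCGG on the other strand at 84 and 75 bases. The full 250-base window of Col1a2 also holds CCAAT, outside the stretch printed. Over all 250-base upstream windows in the table, GGGCGG on either strand was found in 15 of the 26 windows of matrix genes and in 32.7% of all 32851 windows. CCAAT was found in 8 of the 26 and in 33.8% of all windows, and TATAAA in 5 of the 26 and in 12.4%. None of the marked stretches overlaps another, and a match is a description of the sequence only.

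Basement membrane and network genes were divided. Of 8 genes, 4 were lower with T-PNU than with T-DM1 and none of the other 4 was called. Lamb1 (ENSMUSG00000002900, chromosome 12, 31265234 to 31329644), encoding the laminin beta1 chain, ranged from 11.17 to 12.98 (median 12.32) with T-PNU and from 13.00 to 13.41 (median 13.10) with T-DM1, without overlap. Trastuzumab samples lay between 12.20 and 13.29 (median 13.04) and untreated samples between 11.99 and 13.29 (median 13.09). Its log2 difference between T-PNU and T-DM1 was -0.93 (standard error 0.26, adjusted p = 0.0123). Col8a1, a short-chain network collagen, had the widest difference of the role group, -1.03 (standard error 0.25, adjusted p = 0.00511), with 10.05 to 11.74 (median 11.16) in T-PNU and 11.85 to 12.28 (median 12.12) in T-DM1 samples. It stood at 11.07 to 12.11 (median 11.86) with trastuzumab and at 10.73 to 12.02 (median 11.68) in untreated samples. Col18a1, whose product can release endostatin, and Lamc1, encoding laminin gamma1, were lower by differences of -0.89 and -0.28 (adjusted p = 0.00815 and 0.0379).

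The 4 genes that were not called had positive differences. Col4a1 and Col4a2, the 2 main chains of collagen IV, start 21 bases apart on opposite strands of chromosome 8, and their differences were 0.39 and 0.36 (adjusted p = 0.173 and 0.165). Col4a1 ranged from 10.41 to 11.29 (median 10.98) with T-PNU, from 9.63 to 10.93 (median 10.74) with T-DM1, from 10.81 to 11.70 (median 10.92) with trastuzumab and from 10.09 to 11.25 (median 10.61) without treatment, so that the 4 groups overlapped. T-DM1 sample E3 was the lowest of the 24 for both chains and trastuzumab B3 the highest. Nid1, encoding nidogen, which links laminin to collagen IV, and Lama4, a laminin alpha chain of vessels, had differences of 0.29 and 0.27 (adjusted p = 0.211 and 0.204). These 4 genes encode parts of basement membranes, which lie around vessels and under epithelium. With T-PNU against T-DM1, 7 of 10 endothelial marker genes were higher. Of 11 carcinoma and epithelial marker genes 3 were higher and 1 lower, as given with the other marker lists. The part of endothelial or epithelial RNA in these 4 values was not tested.

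Collagens VI and XII, which lie at the surface of fibrils and tie them to cells, held the largest differences. Col6a2 (ENSMUSG00000020241, chromosome 10, 76595762 to 76623630), encoding the alpha2 chain of collagen VI, ranged from 10.24 to 11.70 (median 11.59) with T-PNU, from 12.77 to 13.28 (median 13.15) with T-DM1, from 11.44 to 12.91 (median 12.33) with trastuzumab and from 10.93 to 12.58 (median 12.29) without treatment. The lowest T-DM1 value thus exceeded the highest T-PNU value by more than the range of the T-DM1 samples themselves. The difference was -1.85 (standard error 0.30, adjusted p = 0.00091), or 3.61-fold lower. Its neighbour Col6a1, 85.2 kb away on chromosome 10, differed by -1.71 (adjusted p = 0.00126). The third chain gene, Col6a3 on chromosome 1, did not follow them, with a difference of -0.20 (adjusted p = 0.492) and T-PNU values of 7.30 to 8.56 beside T-DM1 values of 7.59 to 8.55. Col12a1, encoding a fibril-associated collagen, ranged from 11.28 to 13.31 (median 12.66) with T-PNU, from 13.58 to 14.08 (median 13.91) with T-DM1, from 12.35 to 14.14 (median 13.51) with trastuzumab and from 12.26 to 14.02 (median 13.77) without treatment. It differed by -1.38 between T-PNU and T-DM1 (standard error 0.33, adjusted p = 0.00556).

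Among the proteoglycans, 3 of 4 were lower with T-PNU than with T-DM1. Bgn, encoding biglycan, a small leucine-rich proteoglycan of collagen fibrils, had the widest difference, -0.79 (standard error 0.17, adjusted p = 0.0032). Its values were 9.02 to 10.46 (median 9.92) with T-PNU, 10.38 to 10.79 (median 10.76) with T-DM1, 10.16 to 10.71 (median 10.38) with trastuzumab and 9.44 to 10.13 (median 9.76) without treatment, so that T-PNU and T-DM1 met only at T-PNU sample G1. Vcan, encoding the large hyaluronan-binding proteoglycan versican, had the highest level per kb of the 4 and differed by -0.69 (standard error 0.20, adjusted p = 0.0145). It ranged from 11.51 to 12.40 (median 11.93) with T-PNU, from 12.38 to 12.94 (median 12.67) with T-DM1, from 11.44 to 12.51 (median 12.26) with trastuzumab and from 11.65 to 12.74 (median 12.35) without treatment. Dcn, encoding decorin, differed by -0.65 (adjusted p = 0.0108). Lum, encoding lumican, lies 47 kb from Dcn on chromosome 10 and had a difference of 0.02 (standard error 0.28, adjusted p = 0.972). Lum values were 6.76 to 7.97 (median 7.51) with T-PNU and 7.10 to 8.00 (median 7.35) with T-DM1, 6.59 to 8.52 (median 7.90) with trastuzumab and 6.05 to 7.22 (median 6.61) without treatment, and the 4 groups overlapped.

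The enzymes that crosslink collagen and elastin moved with the collagens. Loxl1 (ENSMUSG00000032334, chromosome 9, 58287738 to 58313186), encoding a lysyl oxidase-like enzyme, ranged from 6.04 to 7.16 (median 6.70) with T-PNU, from 7.56 to 8.36 (median 8.04) with T-DM1, from 6.95 to 7.99 (median 7.40) with trastuzumab and from 6.25 to 7.18 (median 6.80) without treatment. All T-DM1 values lay above all T-PNU and all untreated values. The difference between T-PNU and T-DM1 was -1.46 (standard error 0.20, adjusted p = 0.00047), the lowest adjusted p of the 37 genes. Lox itself ranged from 8.75 to 10.35 (median 9.59) with T-PNU, from 10.57 to 11.29 (median 10.95) with T-DM1, from 9.59 to 10.92 (median 10.54) with trastuzumab and from 9.39 to 10.76 (median 10.51) without treatment, and differed by -1.32 (standard error 0.27, adjusted p = 0.00241). Fbln2, encoding fibulin-2, a binding partner of fibronectin and fibrillin, had the highest level per kb of this role group and differed by -1.33 (standard error 0.25, adjusted p = 0.00172). Its values were 11.91 to 13.23 (median 13.00) with T-PNU, 13.88 to 14.34 (median 14.06) with T-DM1, 12.86 to 14.00 (median 13.51) with trastuzumab and 12.30 to 13.66 (median 13.40) without treatment. Loxl2 differed by -0.77 (adjusted p = 0.0193). Fbn1, encoding the microfibril protein fibrillin-1, was not called, at -0.18 (adjusted p = 0.376).

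Of the adhesive and matricellular glycoproteins, which signal to cells from within the matrix, 4 of 6 were lower. Fn1 (ENSMUSG00000026193, chromosome 1, 71585520 to 71653200) had the highest level per kb of the 37 genes. It ranged from 14.37 to 16.53 (median 15.48) with T-PNU, from 16.51 to 16.96 (median 16.59) with T-DM1, from 15.41 to 17.07 (median 16.29) with trastuzumab and from 15.29 to 16.66 (median 16.50) without treatment. T-PNU sample A2, at 16.53, alone reached the T-DM1 range, and the difference was -1.27 (standard error 0.32, adjusted p = 0.00669). Thbs2 and Sparc, encoding thrombospondin-2 and the collagen-binding protein osteonectin, differed by -1.16 and -0.99 (adjusted p = 0.00181 and 0.00362), and their T-PNU and T-DM1 values did not overlap. Thbs1, encoding thrombospondin-1, differed by -0.39 (adjusted p = 0.0463). Postn and Tnc, encoding periostin and tenascin-C, had differences of -0.28 and -0.45 (adjusted p = 0.367 and 0.102).

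The fibroblast, pericyte and smooth muscle genes included the only 1 of the 37 that was called higher with T-PNU than with T-DM1. Pdgfrb, encoding the PDGF receptor of pericytes and fibroblasts, ranged from 9.02 to 10.63 (median 10.44) with T-PNU, from 11.42 to 11.90 (median 11.75) with T-DM1, from 10.19 to 11.48 (median 10.93) with trastuzumab and from 10.02 to 11.42 (median 11.06) without treatment. It was 2.98-fold lower with T-PNU than with T-DM1 (log2 difference -1.57, standard error 0.28, adjusted p = 0.00133), and Pdgfra, the other receptor gene, differed by -1.21 (adjusted p = 0.00321). Acta2 (ENSMUSG00000035783, chromosome 19, 34241090 to 34255590), encoding smooth muscle actin, ranged from 11.63 to 13.19 (median 12.74) with T-PNU, from 13.39 to 13.77 (median 13.62) with T-DM1, from 12.45 to 13.78 (median 13.40) with trastuzumab and from 12.43 to 13.64 (median 13.29) without treatment, with a difference of -1.06 (standard error 0.25, adjusted p = 0.00508). Tagln, encoding transgelin, an actin-binding protein of smooth muscle, went the other way. It stood at 7.22 to 8.12 (median 7.73) with T-PNU, 6.97 to 7.38 (median 7.16) with T-DM1, 7.21 to 7.88 (median 7.30) with trastuzumab and 7.07 to 8.14 (median 7.27) without treatment, and was higher with T-PNU than with T-DM1 by 0.58 (standard error 0.17, adjusted p = 0.0169). That call was lost without T-PNU sample H1. The level of Acta2 minus that of Tagln in the same sample was 3.56 to 5.77 with T-PNU and 6.13 to 6.71 with T-DM1, without overlap. Fap, encoding fibroblast activation protein, had a difference of 0.31 (adjusted p = 0.22).

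**Figure D3:**
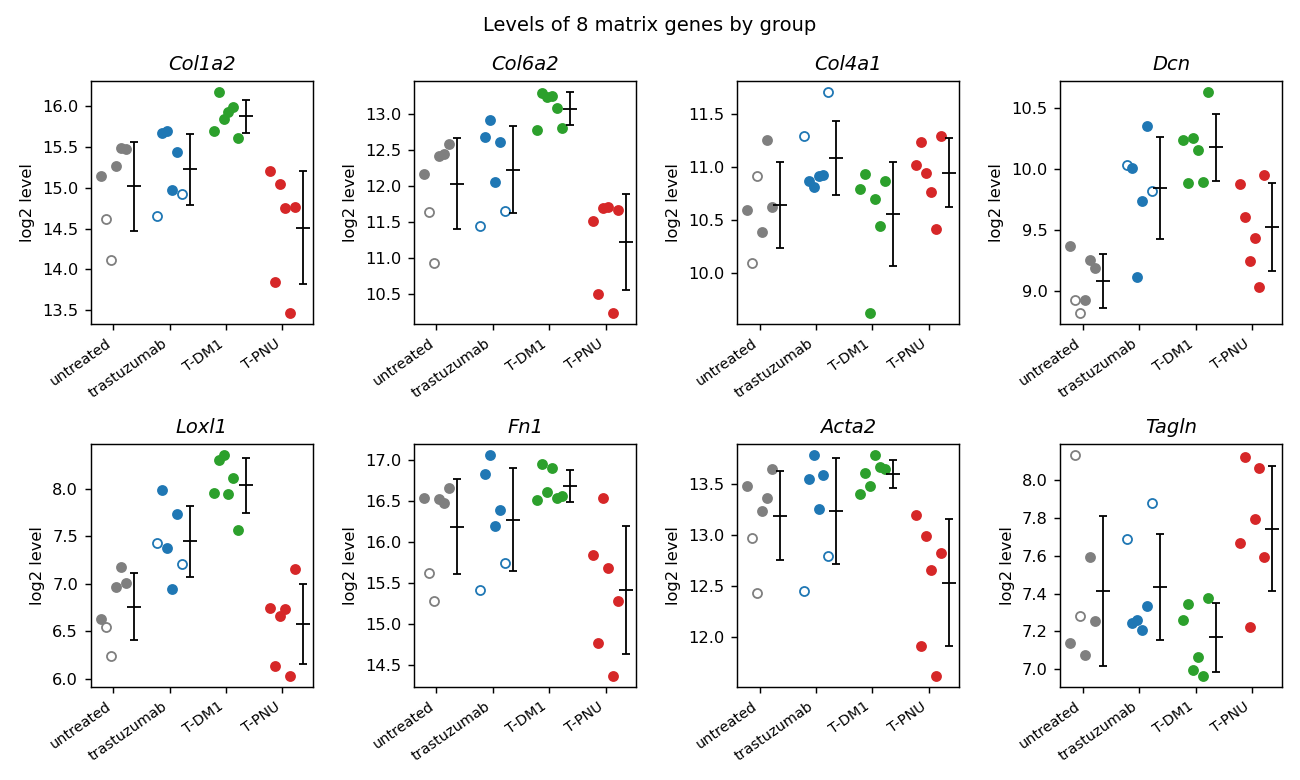
Log2 level (y axis) of 8 matrix genes in each sample (points) by group (x axis), with the group mean and SD of 6 samples as a black bar; open points are the 4 samples not labelled in the study heatmaps. Col1a2, Col6a2, Loxl1 and Acta2 show T-DM1 points all above T-PNU points, Col4a1 shows overlapping groups, and Tagln has its highest group median, 7.73, with T-PNU.

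Whether genes were called between T-PNU and untreated tumors depended on which samples were used. The 20 samples leave out untreated B1 and C1 and trastuzumab B3 and E2, and all groups share the estimate of the spread. Over all 24 samples none of the 37 genes was called by limma in either direction, where 0.135% of all genes were called higher and 0.053% lower. At an unadjusted p under 0.05, 12 genes were lower and 3 higher, where 15.1% of all genes were lower and 9.74% higher, and the median difference was -0.24. Over the 20 samples 18 genes were lower and 1, Tagln, was higher, against 15.7% and 15.3% of all genes, and the median was -0.52. The 18 lower genes comprised 3 fibril-forming collagens, 3 basement membrane or network genes, 3 of the collagen VI and XII group, 1 proteoglycan, 3 of the crosslinking group, 2 glycoproteins and 3 of the fibroblast and pericyte group. Leaving out only untreated C1 from the 24 gave 11 lower genes. Markers of several cell types moved with this change over the 20 samples. All 6 T cell markers, 4 of 6 leukocyte markers and 7 of 11 carcinoma and epithelial markers were higher with T-PNU than without treatment, 1 of those 11, Krt8, was lower, and 5 of 11 fibroblast markers were lower and 0 higher. Of 10 endothelial markers 4 were higher and 0 lower. The part of these cell types in the difference was not tested.

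Col12a1 had the most negative difference between T-PNU and untreated of the 37, with a log2 value of -0.95 over 24 samples (standard error 0.33, adjusted p = 0.101) and -1.37 over the 20 (standard error 0.27, adjusted p = 0.00387). In the 20 samples its untreated values ran from 13.70 to 14.02, above every T-PNU value, while untreated B1 and C1 stood at 12.99 and 12.26, inside the T-PNU range of 11.28 to 13.31. Col6a2 gave -0.81 over 24 samples (adjusted p = 0.115) and -1.18 over the 20 (adjusted p = 0.00503). Fn1 gave -0.77 (adjusted p = 0.146) and -1.14 (adjusted p = 0.00943) in the same order, Lox -0.70 (0.125) and -1.05 (0.0048), and Lamb1 -0.67 (0.13) and -0.95 (0.00997). Pdgfrb gave -0.75 (0.115) and -1.08 (0.00691), Acta2 -0.65 (0.125) and -0.89 (0.00917), and Col1a2 -0.50 (0.247) and -0.83 (0.0233). Lum had the most positive value, 0.83 over 24 samples (standard error 0.28, adjusted p = 0.0915). For Col1a1 the difference from untreated was -0.30 over 24 samples (adjusted p = 0.509), and it was not called over the 20 either.

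T-DM1 samples stood above untreated samples. Over 24 samples 10 of the 37 genes were higher and 0 lower, beside 4.11% and 2.15% of all genes, and the median difference was 0.50, with 34 of the 37 positive. The 10 were Col1a1 (log2 difference 1.32, adjusted p = 0.0122), Col3a1 (0.91), Col5a1 (0.97), Col6a2 (1.04), Bgn (0.89), Dcn (1.10), Loxl1 (1.28), Fbln2 (0.86), Thbs1 (0.56) and Thbs2 (0.90). Dcn ranged from 9.89 to 10.63 (median 10.20) with T-DM1 and from 8.82 to 9.37 (median 9.06) without treatment (standard error 0.18, adjusted p = 0.00224). Its trastuzumab values, 9.11 to 10.35 (median 9.92), and T-PNU values, 9.03 to 9.96 (median 9.52), had medians between those of the other 2 groups. Over the 20 samples the median difference was 0.25, with 30 of the 37 positive. The count was then 3 higher, Bgn (0.74), Dcn (0.99) and Loxl1 (1.09), and 0 lower, against 0.906% and 1.1% of all genes. The count was 6 without untreated C1 and 5 without either T-DM1 sample D3 or F3. None of the basement membrane genes was called, and the median of those 8 was 0.09.

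Trastuzumab samples had higher levels than untreated samples for most of the 37 genes, but few passed the test. The difference was positive for 34 genes, with a median of 0.23, and the largest was that of Lum, 2.18-fold (adjusted p = 0.0856). At an unadjusted p under 0.05, 13 were higher and 0 lower, where 5.31% of all genes were higher and 3.46% lower. After adjustment Col5a2 (log2 difference 0.96, standard error 0.21, adjusted p = 0.0469) and Nid1 (0.84, standard error 0.18, adjusted p = 0.044) were higher, 0 genes were lower, and the background was 0.247% higher and 0.0118% lower. Col5a2 ranged from 9.13 to 9.84 (median 9.54) with trastuzumab and from 8.16 to 8.94 (median 8.52) without treatment, and Nid1 from 8.51 to 9.21 (median 8.97) and from 7.67 to 8.56 (median 8.07). Both calls were lost over the 20 samples, in which limma called 0% of genes in either direction. T-DM1 against trastuzumab gave 1 call over 24 samples, the lower Nid1 (-0.77, standard error 0.18, adjusted p = 0.0456), with 0.212% of genes higher and 0.435% lower. It gave 0 calls among the 37 over the 20 samples, with 0.118% and 0.694% of genes called. At an unadjusted p under 0.05, 14 of the 37 were higher and 6 lower over 24 samples, where 7.97% and 7.35% of all genes were. Over the 20 samples 3 were higher and 3 lower, where 6.35% and 7.72% of all genes were. These few calls were sensitive to single libraries. Trastuzumab against untreated gave 4 without trastuzumab G2 and 0 or 1 without most others, and T-DM1 against trastuzumab gave 2 without T-DM1 H3 and 0 without most others.

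T-PNU against trastuzumab also depended on which samples were used. Over 24 samples 0 of the 37 genes were called, beside 0.00588% of genes higher and 0% lower, and the median was -0.66. At an unadjusted p under 0.05, 27 genes were lower and 0 higher, where 11.6% and 7.83% of all genes were. Leaving out untreated C1 alone gave 2 lower genes. Over the 20 samples 24 genes were lower and 1, Tagln, was higher, beside 13.5% and 14.6% of all genes. In the same samples 4 of 6 T cell, 3 of 6 leukocyte, 2 of 5 B cell and 4 of 10 endothelial markers were higher and 0 lower. Of 11 carcinoma and epithelial markers 7 were higher and 1 lower. Of 11 fibroblast markers 5 were lower and 0 higher, and 1 of 5 platelet and 1 of 8 pericyte and smooth muscle markers were lower. The widest difference of the matrix genes was in Col6a2 (-1.34, standard error 0.25, adjusted p = 0.00584), followed by Col12a1 (-1.24) and Col6a1 (-1.23). The T-PNU values of Tnc (7.01 to 8.07, median 7.42) all lay below the trastuzumab values of all 6 mice (8.13 to 8.84, median 8.27), with -0.92 over the 20 samples (adjusted p = 0.0127). The comparisons share samples, so their counts are not independent of one another.

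Tested for any difference among the 4 groups, 27 of the 37 genes passed over 24 samples (limma F test, adjusted p under 0.05), where 18.8% of all genes did, and 29 passed over the 20, where 40.8% did. In the order of group means T-DM1 was highest for 24 genes, trastuzumab for 11 and T-PNU for 2. T-PNU was lowest for 24 genes, untreated for 10 and T-DM1 for 3. The order T-DM1, trastuzumab, untreated, T-PNU held for 18 genes. Within that order trastuzumab and untreated did not differ at an adjusted p under 0.05 for any gene but Col5a2 and Nid1, neither of which follows it.

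The T-PNU samples differed widely among themselves. G1 had 25 of the 37 genes above the gene's own mean and A2 had 12, H1 had 10 and D2 had 9, while B2 and C2 had 2 each. The paper separates high-responding from low-responding T-PNU samples, a division not used here. The summed T cell markers were lowest in G1 and A2 among the T-PNU samples, at 12.0 and 12.2 on a log2 scale. In the other T-PNU samples they ran from 13.3 to 14.3, and a relation to the matrix genes was not tested. C2 was the lowest of the 24 samples for 23 genes, and its mean deviation over the 37 was -1.07. Next came untreated C1 at -0.63, T-PNU H1 at -0.57 and untreated B1 at -0.53. The T-DM1 samples were closer together, between 0.22 and 0.55, with 24 to 36 genes above their mean. The trastuzumab samples ran from -0.14 in E2 to 0.41 in F2. The mean deviation of the untreated samples other than B1 and C1 ran from -0.15 to 0.17, and that of T-PNU samples from -1.07 to 0.08.

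The genes called lower with T-PNU than with T-DM1 were mostly those with high levels. Per kb of exon, the 25 lower genes had a median level above 81.3% of all genes (from 35.6% for Loxl1 to 98.4% for Fn1), whereas the 11 genes that were not called had a median above 36.9% (from 22.2% for Lama4 to 65.7% for Col4a1). Tagln stood above 45.7%. Loxl1, at the bottom of the lower genes by level, nevertheless had a log2 difference of -1.46. The part of expression level, or of a compression of low values, in the calls was not tested.

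**Figure D4:**
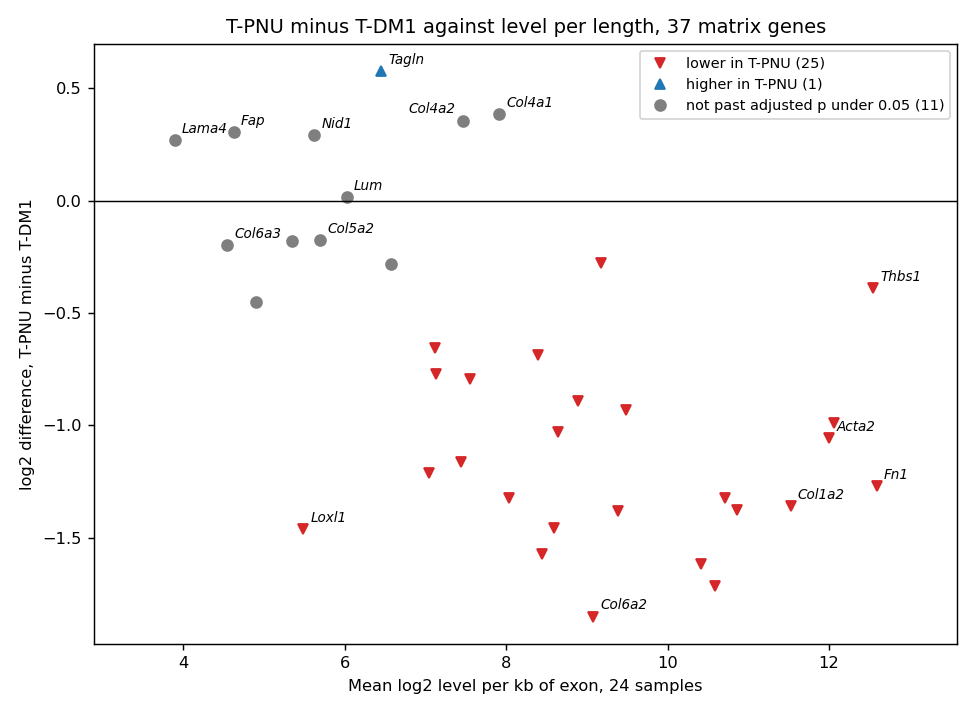
Log2 difference T-PNU minus T-DM1 (y axis) against the mean log2 level per kb of exon over 24 samples (x axis) for the 37 genes; triangles passed an adjusted p of 0.05 and grey circles did not. The 25 lower genes lie mostly to the right, Loxl1 lies at the low end of them, and Tagln is the 1 gene above 0 that passed.

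A wider list of 54 further matrix genes with values, none of them among the 37, was counted in the same way. With T-PNU against T-DM1, 34 of the 54 were lower and 2 higher (median log2 difference -0.75), beside 17.4% and 12.4% of all genes. Over the 20 samples 35 were lower and 3 higher, beside 20.1% and 19.8% of all genes. Of the 14 genes for collagen synthesis and processing 12 were lower, among them Serpinh1, encoding the collagen chaperone HSP47 (-1.39, standard error 0.23, adjusted p = 0.000982). Of 8 further collagens 5 were lower, led by Col5a3 (-1.71, standard error 0.24, adjusted p = 0.00047), and Col15a1, a basement membrane collagen, was higher (0.54, adjusted p = 0.0294). Of 19 elastic fibre and other glycoprotein genes 11 were lower, including Aspn, encoding asporin (-1.67, adjusted p = 0.000112), and Fbln5, encoding fibulin-5, was higher (0.92, adjusted p = 0.0108). Of 9 further basement membrane genes 5 were lower, and of 4 hyaluronan genes 1, Has2, was.

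In the other comparisons of the wider list over 24 samples, T-DM1 against untreated gave 13 higher and 0 lower. The shares of all genes were 4.11% and 2.15%. Aspn was the largest at 1.41 (adjusted p = 0.000535) and Nid2 the lowest at -0.24 (adjusted p = 0.472). Trastuzumab against untreated gave 4 higher and 0 lower, beside 0.247% and 0.0118% of all genes. Differences ran from Has1, a hyaluronan synthase gene, at 1.26 (adjusted p = 0.0186) to Col4a5 at -0.19 (adjusted p = 0.913). T-DM1 against trastuzumab gave 1 higher, Aspn at 0.96 (adjusted p = 0.0186), and 0 lower, beside 0.212% and 0.435% of all genes. The most negative was Eln at -0.78 (adjusted p = 0.14). T-PNU against untreated gave 0 calls, beside 0.135% of all genes higher and 0.053% lower. Differences ran from Cthrc1 at -1.09 (adjusted p = 0.0824) to Efemp1 at 0.93 (adjusted p = 0.0651). Over the 20 samples 3 were higher and 25 lower, beside 15.3% and 15.7% of all genes. T-PNU against trastuzumab gave 0 calls, beside 0.00588% of all genes higher and 0% lower. Differences ran from Col5a3 at -1.33 (adjusted p = 0.125) to Fbln5 at 0.43 (adjusted p = 0.333). Over the 20 samples 34 were lower and 0 higher, beside 13.5% and 14.6% of all genes.

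Markers of the cell types that these preparations could hold moved with the matrix genes, in different directions. Among 11 fibroblast markers that are not among the 37, 5 were lower with T-PNU than with T-DM1 (Mmp2, Mmp3, Serpinf1, Twist1 and Prrx1) and 1, Cd34, was higher. In that comparison 17.4% of all genes were called lower and 12.4% higher. The fibroblast markers were also summed by sample. Their summed level, on a log2 scale, was 14.2 to 15.1 with T-PNU, 14.9 to 15.2 with T-DM1, 14.7 to 15.2 with trastuzumab and 14.3 to 15.1 without treatment. Gsn and Pdpn, neither of them called, weigh most in this sum, with mean log2 levels of 13.9 and 13.3. The next highest was Mmp2 at 10.6. Of 11 carcinoma and epithelial markers Krt8, a keratin of simple epithelium, was lower (-0.96, adjusted p = 0.00434), and Krt5, Krt14 and Epcam were higher. Krt8 had a mean log2 level of 13.0, Epcam of 7.40 and Krt5 of 4.04, none of them corrected for length. The summed level of that list was 12.6 to 13.7 with T-PNU, 13.6 to 14.2 with T-DM1, 13.2 to 13.8 with trastuzumab and 13.0 to 13.9 without treatment, and it was lowest in C2. This sum weighs Krt8 most. Taken singly, 9 of the 11 genes had positive differences between T-PNU and T-DM1 and 2 had negative ones, with a median of 0.28. Of 8 pericyte and smooth muscle markers, 1 was lower (Myl9) and 1 higher (Mcam). Their summed level was 10.2 to 11.1 with T-PNU, 10.6 to 11.1 with T-DM1, 10.8 to 11.2 with trastuzumab and 10.6 to 11.2 without treatment.

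Endothelial and leukocyte markers went the opposite way. Of 10 endothelial genes 7 were higher with T-PNU than with T-DM1 and 0 lower, and their summed level was 12.7 to 13.2 with T-PNU, 12.1 to 12.7 with T-DM1, 12.1 to 12.9 with trastuzumab and 12.1 to 12.9 without treatment. Of 6 leukocyte genes 4 were higher, with summed levels of 16.8 to 17.4, 16.4 to 16.8, 16.6 to 17.1 and 16.5 to 17.2 in the same order. Among 8 macrophage genes 5 were higher and 0 lower, with summed levels of 18.1 to 18.8 with T-PNU, 17.4 to 18.0 with T-DM1, 18.2 to 18.6 with trastuzumab and 17.4 to 19.1 without treatment. Among 5 platelet genes, listed because platelets carry thrombospondin-1, 3 were lower and 0 higher. Their summed levels were 10.7 to 11.2, 10.5 to 11.8, 10.4 to 11.1 and 9.83 to 11.8 in the same order. Pf4 weighs most in this sum, with a mean log2 level of 10.7, and the next highest was Itga2b at 7.51. The medians of Pf4 were 10.77 with T-PNU and 10.72 with T-DM1. Among 5 neutrophil genes 1 was higher and among 5 adipose and muscle genes 1, with 0 lower in each. Of 6 T cell and 5 B cell genes 0 were called by limma over 24 samples, and over the 20 samples 2 of the T cell genes and 0 of the B cell genes were, both higher. The median log2 differences of those lists were 0.91 and 1.01. T cell summed levels ran from 12.0 to 14.3 with T-PNU, highest in C2 and reached 13.3 with T-DM1, and 14.0 in untreated B1. The lowest marker means were those of Ckm, a muscle gene, and Adipoq, an adipocyte gene, at 2.89 and 3.04. The part of tumor, stromal, endothelial or immune cell content in the matrix differences was not tested.

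**Figure D5:**
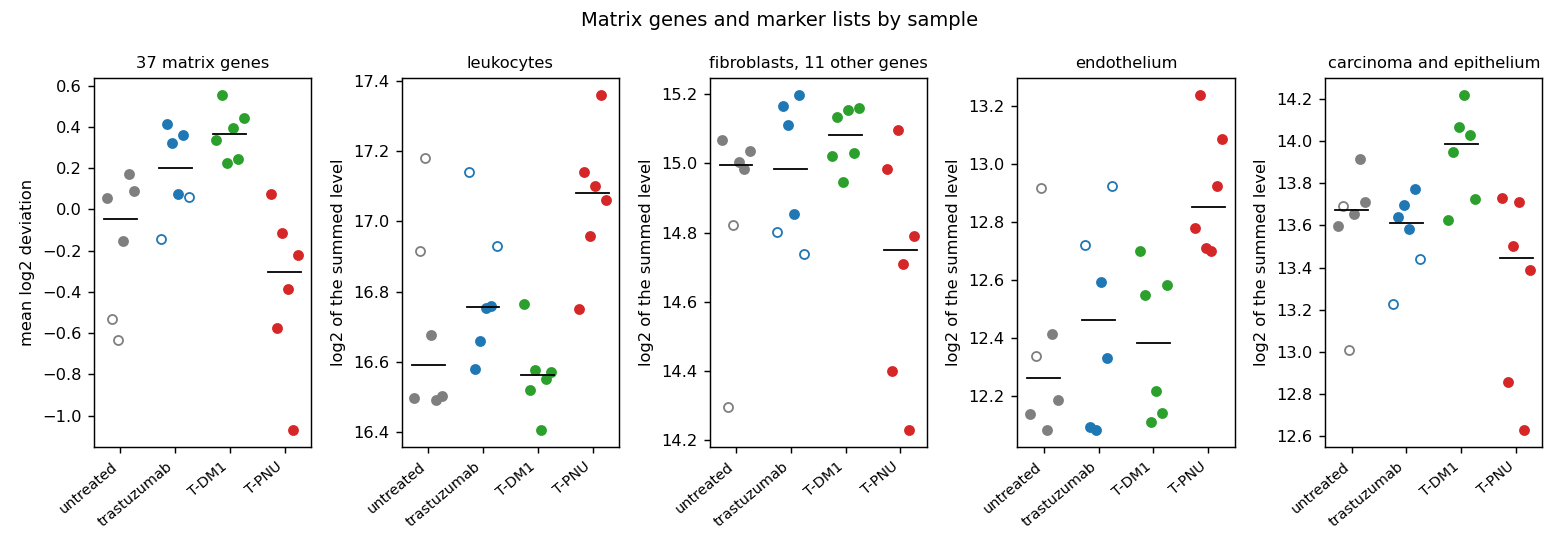
Mean log2 deviation of the 37 matrix genes (first panel) and the log2 summed level of 4 marker lists (other panels) in each sample (points), by group, with the group median as a line; open points are the 4 samples not labelled in the study heatmaps. The T-PNU median is the lowest of the 4 groups for the matrix genes and for the fibroblast and carcinoma sums. It is the highest for the leukocyte and endothelial sums. In the matrix panel no T-PNU sample (highest 0.08) reaches the T-DM1 samples (lowest 0.22). The fibroblast sum weighs Gsn and Pdpn most and the carcinoma sum Krt8. Of the 11 carcinoma and epithelial genes, 9 had positive differences between T-PNU and T-DM1.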

How the data were processed

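RNA-seq libraries (TruSeq stranded mRNA) of CD45+ cells from 24 tumors, 6 in each of 4 groups, were analysed. Per the labels and the submitters' processing notes, the authors aligned reads with STAR 2.4.2a, counted them per gene by strand with featureCounts (Subread 1.5.0), dropped genes with low average counts and also used Picard and DESeq2. The deposited values are log2 levels normalized for library size by a transformation not given in the sources used here. The precision of a value therefore rests on the 6 samples of a group, which are separate mice. The 4 groups entered a limma model (version 3.58.1, R 4.3.3) without covariates, and contrasts were tested by eBayes with a mean-variance trend. Benjamini-Hochberg adjustment was over all 16996 genes of a comparison, with calls at an adjusted p under 0.05, and the fit was tested on simulated data. Positions, lengths and exons came from GENCODE M21 on GRCm38, with lengths for 99.7% of genes, and Python 3.11.15 with matplotlib 3.10.9 drew the figures.

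The 37 genes, the wider list of 55 genes (54 with values) and the 11 marker lists of 86 genes (80 with values) were chosen with earlier results of these data known. In each of 7 role groups the text gives the gene with the highest mean and those with the largest absolute difference of T-PNU from untreated and from T-DM1, so their sizes describe extremes. Other genes are named where called or against the sign of most, and a few to show neighbours or partner chains were chosen after their values were seen. Alternatives were the 20 samples, quantile normalization, only genes with a mean above the median, only the 2 groups compared, sample weights, an adjusted p under 0.01 with an absolute log2 difference above 1, and the omission of each single sample.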

Additional observations from a re-analysis of the deposited data

How the results depend on the processing

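The median differences of the 37 genes kept their sign under every alternative tried in each of the 6 comparisons. They moved by less than 0.36, the SD of single samples within groups, which is a wide limit for differences between group means. With the 20 samples the median went from -0.24 to -0.52 for T-PNU minus untreated. It went from 0.50 to 0.25 for T-DM1 minus untreated and from 0.37 to 0.14 for T-DM1 minus trastuzumab. That of T-PNU minus T-DM1 stayed at -0.89. The number of genes called between T-PNU and T-DM1 was 26, stayed at 24 to 27 under the other settings and fell to 16 only with an adjusted p under 0.01 and an absolute log2 difference above 1. With single samples left out it ran from 22 to 27. Counts in the other comparisons changed. T-PNU against untreated gave 0 calls, 19 with the 20 samples, 21 with sample weights and 0 to 11 with single samples left out. T-PNU against trastuzumab gave 0, 25 and 22 in the same order, and 0 to 2 with single samples left out. T-DM1 against untreated gave 10 calls, 3 with the 20 samples, 2 at the stricter thresholds and 5 to 14 with single samples left out. Trastuzumab against untreated gave 2 calls, 6 with sample weights, 1 among genes above the median level, 0 under the other 4 settings and 0 to 4 with single samples left out. T-DM1 against trastuzumab gave 1 call, 4 with only those 2 groups, 6 with sample weights, 0 under the other 4 settings and 0 to 2 with single samples left out. Any difference among the 4 groups was called for 27 genes, for 9 at an adjusted p under 0.01 and for 18 to 32 with single samples left out. Values near 0 changed sign. The difference of Bgn between T-PNU and untreated was 0.10, -0.055 with the 20 samples and -0.025 to 0.26 with single samples left out, the lowest without T-PNU G1. That of Lum between T-PNU and T-DM1 was 0.02, and -0.088 to 0.15 with single samples left out, below 0 without T-PNU G1, H1 or D2 or T-DM1 E3, F3 or G3. The alternatives of 20 samples and single samples left out use fewer samples, and the cause of the other changes was not tested. No paired analysis was possible because the labels give no replicate numbers shared between groups.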
